A study of Saccharomyces cerevisiae with 11 samples.

Results

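The 33 genes described here encode the enzymes that build dolichol-linked sugars, attach N-glycans to proteins and start O-mannosylation in budding yeast, Saccharomyces cerevisiae. They were chosen by name, and each was read through the probe set annotated to exactly 1 gene, or through the one with the highest mean signal where a gene had several. All 33 were on the array, of 5656 genes with such a probe set, and 32 passed the filter on low values in each set of arrays. The exception in both sets was SRT1. The list held 16 genes of dolichol and lipid-linked oligosaccharide synthesis, 9 oligosaccharyltransferase subunits, 6 protein O-mannosyltransferases and 2 glucosidases that trim the attached glycan.

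Dolichol is a long lipid of the endoplasmic reticulum membrane on which sugars are assembled before transfer. ALG enzymes start from dolichyl phosphate and add sugars in order, first on the cytosolic and then on the lumenal side of the membrane. The oligosaccharyltransferase moves the finished oligosaccharide to asparagine residues of proteins entering the lumen. The PMT enzymes use dolichyl phosphate mannose to mannosylate serine and threonine residues. In yeast both modifications are needed for cell wall mannoproteins, and many of the early ALG genes are essential.

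Transcripts were measured on Affymetrix arrays, with 1 array per sample and 11 arrays in all. A strain set held 2 wild type arrays, 2 arrays of a paf1 deletion and 1 array of a ctr9 deletion, all from mid-log cultures in YPD medium with 4% glucose. A time course held 6 arrays of a strain named TetO2-Paf1 in the labels, in which doxycycline represses PAF1, at 0 h without the drug and after 2, 4, 5, 6 and 8 h with it. Paf1 and Ctr9 are subunits of the Paf1 complex, which travels with RNA polymerase II, and the series asks which transcripts depend on it directly. No further genotype, mating type or time course medium was given in the labels, so a difference in strain background cannot be told apart from the deletion. Nothing in the labels said that replicates were separate cultures, so p-values measure the spread between arrays, which may be technical. The number of arrays limited the precision.

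Time course values were linear signal intensities, whereas strain values were scores between -10 and 10 of unstated scale. Probe sets without a yeast target scored from -2.08 to 1.93 and gave signals from 0.5 to 44.2. PAF1 scored 7.27 and 8.08 in wild type and 1.00 and 0.47 where it was deleted, and its signal in the TetO2 strain went from 272 at 0 h to 118.8 at 2 h and 165.8 at 8 h. The CTR9 probe set gave scores of 1.84 and 4.36 in wild type and 0.00 where the gene was deleted. The 4 h array stood apart, with an actin 5' to 3' signal ratio of 5.92% against 68.6% to 78.6% on the other time course arrays. Spike-in controls gave 4.34 times the 0 h signal at 4 h and 3.93 times at 6 h. Of the 33 members 10 lay in the top 10% of signals, where the score ran against the signal across probe sets (Spearman correlation -0.244, n = 928 probe sets). How far the score follows a change in such abundant transcripts was not tested.

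In the paf1 deletion, 1 of 32 tested members passed, the dolichol kinase gene SEC59, which was lower. It got past the filter on low values only through its wild type scores. Across the array 1.71% of 6493 probe sets passed (limma, Benjamini-Hochberg adjusted p under 0.05), and 0.585% passed as lower. The median difference of the members was -0.188 score units, against -0.06 for all probe sets. Of the 32 members 23 were lower and 9 higher, against 54.0% lower over all probe sets. Both values moved with the wild type array used. Without wild type replicate 1 the member median was 0.018 (all probe sets 0.075), with 15 lower and 16 higher, and without replicate 2 it was -0.443 (all probe sets -0.245), with 26 lower. Both paf1 deletion arrays lay below both wild type arrays for 10 members, where 24.1% of all probe sets did so, and above both for 2, where 19.4% did. The plot of all member scores shows SEC59 as the member with the widest gap between wild type and deletions.

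**Figure D1:**
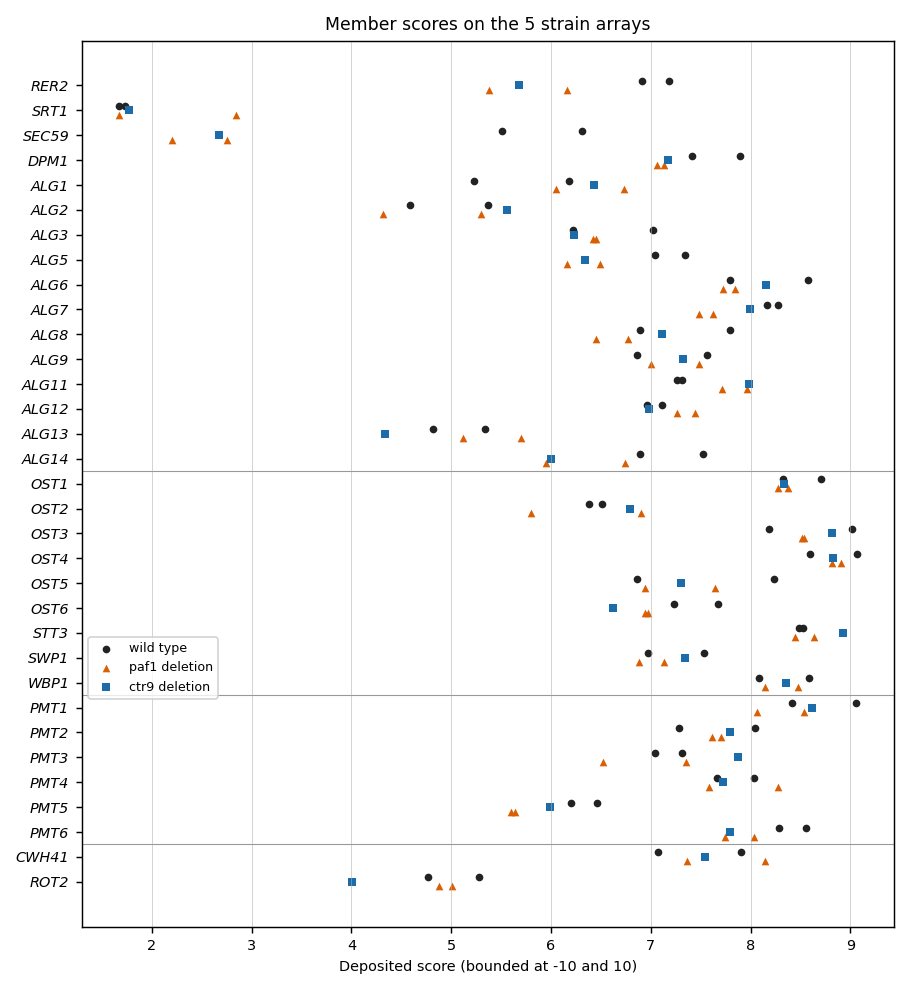
Deposited scores (x axis, score units) of the 33 members (y axis) on the 2 wild type arrays (black circles), 2 paf1 deletion arrays (orange triangles) and 1 ctr9 deletion array (blue square), with grey lines between the 4 groups of genes. SEC59 has wild type scores of 6.31 and 5.51 and deletion scores of 2.20 to 2.75, and wild type and paf1 deletion arrays overlap for 20 of the 32 tested members.

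SEC59 (YMR013C) encodes dolichol kinase, which makes the dolichyl phosphate that all the later steps require. It scored 6.31 and 5.51 in wild type, 2.20 and 2.75 with paf1 deleted and 2.67 with ctr9 deleted. All 3 deletion arrays lay below both wild type arrays with no overlap, and just above the highest score of the probe sets without a target. The paf1 deletion differed from wild type by -3.44 (SE 0.65, 95% interval from -4.868 to -2.002, 2 arrays against 2), and this passed (limma adjusted p = 0.0371). The ctr9 deletion differed from wild type by -3.24 (SE 0.79, n = 1 against 2) without passing (limma adjusted p = 0.188). A lower transcript level per cell and a smaller share of cells carrying the transcript cannot be told apart in these bulk samples. The call was lost without a filter (limma adjusted p = 0.0636), with quantile normalization (limma adjusted p = 0.0645), and without wild type replicate 1 or replicate 2 (limma adjusted p = 0.422 and 0.282). All 3 deletion scores lay under the filter value of 2.84, so SEC59 was tested only because its wild type scores were high. At a filter on the 50th percentile SEC59 was no longer tested.

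SEC59 lies between CLU1 and a run of 7 snoRNA genes, SNR78 to SNR72, whose locus tags place them on the strand opposite to SEC59. SNR78, the nearest, guides ribosomal RNA methylation and went the other way, with scores of 2.09 and 0.59 in wild type, 4.05 and 3.20 with paf1 deleted and 3.64 with ctr9 deleted. Its mean lay below the filter, so it was tested only without one. In that fit it differed by 2.29 in the paf1 deletion (SE 0.77) and did not pass (limma adjusted p = 0.245). CLU1, which encodes a protein needed for normal mitochondrial distribution, was at 9.08 and 8.67 in wild type, 8.36 and 8.10 with paf1 deleted and 8.87 with ctr9 deleted, and did not pass (limma adjusted p = 0.367). Of the snoRNA genes further along, which were looked at after the SEC59 value was seen, SNR77, SNR76, SNR75, SNR74, SNR73 and SNR72 differed by -0.38, -1.26, -1.04, -0.34, -0.635 and -1.18 in the paf1 deletion, and none passed. Beyond them BUD22 differed by -0.25. SEC59 was the only tested gene of this stretch past the threshold. In the time course SNR73 went from a signal of 498.1 at 0 h to 154.4 at 2 h and 132.2 at 8 h. SNR75 went from 743.2 at 0 h to 400.9 at 8 h, and neither slope passed (limma adjusted p = 0.557 for both). At 8 h SNR76, SNR75, SNR74, SNR73 and SNR72 were at 0.370, 0.539, 0.369, 0.265 and 0.613 of their 0 h signals. Each was at least 1.5-fold lower, where 9.84% of all probe sets were. SNR77, at 0.74, was not. SNR78 stayed between 6.0 and 17.6, within the range of probe sets without a target. Whether the probes separate the 2 strands was not tested.

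**Figure D2:**
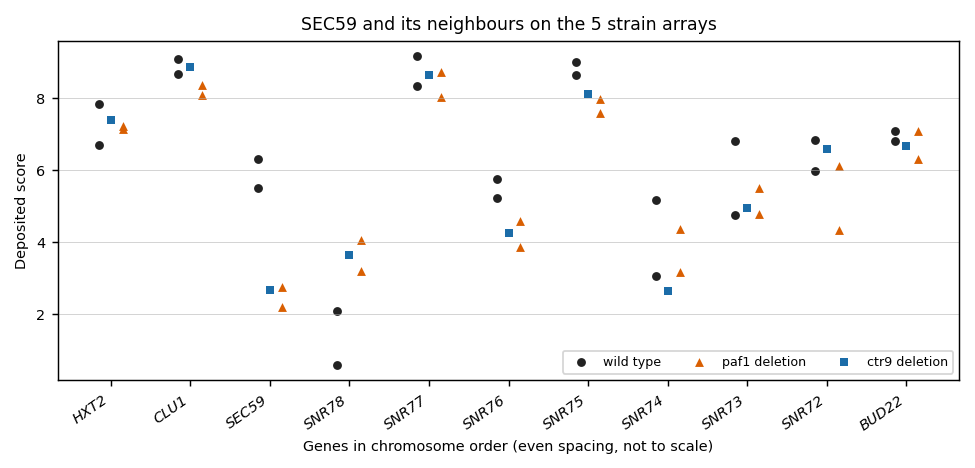
Deposited scores (y axis) of SEC59 and its protein-coding and snoRNA neighbours in chromosome order (x axis, evenly spaced and not to scale) on the 5 strain arrays, marked by strain. SEC59 is lower on all 3 deletion arrays (2.20 to 2.75 against 5.51 and 6.31), and SNR78 beside it is higher (3.20 to 4.05 against 0.59 and 2.09).

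In the TetO2 strain SEC59 gave signals of 51.9, 68.5, 60.5, 64.2, 60.4 and 61.0 at 0, 2, 4, 5, 6 and 8 h. The lowest signal was that of the untreated culture, and all 6 were above the highest signal of a probe set without a target. The fitted slope was 0.02 in log2 signal per hour, a change of 1.09-fold over 8 h with a 95% interval from 0.63 to 1.89 (limma adjusted p = 0.93). Scores and signals have no common scale, so the rank of the probe set among the 9275 non-control probe sets of each array was compared. SEC59 lay at percentile 65.2 and 57.2 in wild type, 23.6 and 28.6 with paf1 deleted and 28.3 with ctr9 deleted. In the time course it lay between percentile 36.4, at 0 h, and 40.2. Its mean rank was therefore 22.9 points higher in wild type than in the TetO2 strain, the largest such gap among the members, although 232 of 6107 probe sets that passed both filters, 3.80%, had a gap at least as large. The rank comparison has no test, since it spans 2 kinds of value.

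**Figure D3:**
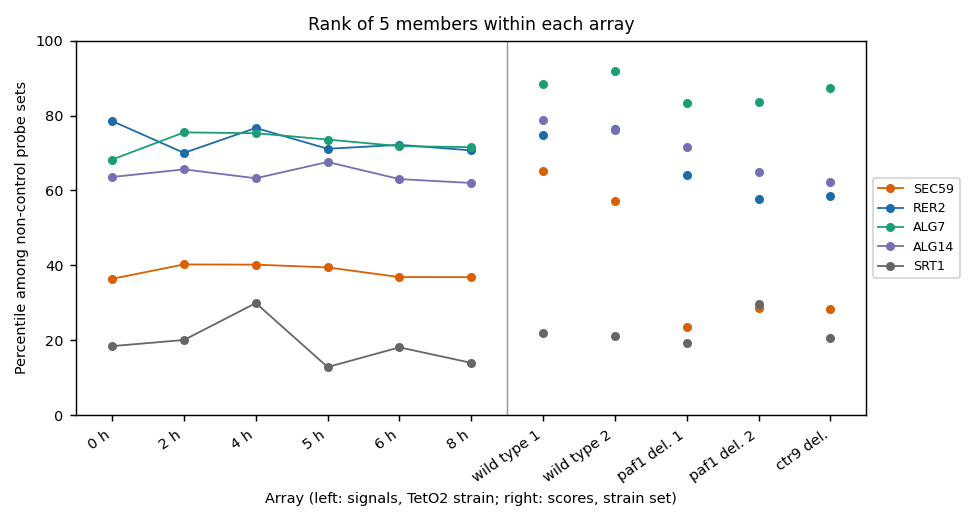
Percentile of 5 members (y axis, among the non-control probe sets of the same array) on the 6 time course arrays (left, signals, joined by lines) and the 5 strain arrays (right, scores). SEC59 (orange) is at 36.4 to 40.2 throughout the time course, at 57.2 and 65.2 in wild type and at 23.6 to 28.6 in the deletions.

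RER2 and SRT1 encode the cis-prenyltransferases that make the dolichol chain, RER2 being active in growing cells. RER2 scored 7.18 and 6.91 in wild type, 6.16 and 5.38 with paf1 deleted and 5.68 with ctr9 deleted. The deletion arrays again lay below wild type without overlap. Neither its difference of -1.28 on deletion of paf1 (SE 0.54, 2 arrays per group) nor that of -1.37 on deletion of ctr9 (SE 0.66) passed (limma adjusted p = 0.298 and 0.54). Together with SEC59 it made up the 2 of 32 members at an unadjusted p under 0.05 in the paf1 deletion, where 14.8% of all probe sets were. SRT1 scored 1.67 to 2.84 on the 5 arrays, so 4 of its 5 scores lay in the range of probe sets without a target, and it was not tested. DPM1, the dolichyl phosphate mannose synthase gene whose product feeds both N-glycan and O-mannose synthesis, scored 7.89 and 7.41 in wild type, 7.06 and 7.13 with paf1 deleted and 7.17 with ctr9 deleted. These values did not overlap either, but the differences of -0.555 and -0.48 did not pass (limma adjusted p = 0.647 and 0.9).

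ALG7 catalyses the first step on the lipid, the transfer of N-acetylglucosamine phosphate. It scored 8.27 and 8.16 in wild type, 7.62 and 7.48 with paf1 deleted and 7.99 with ctr9 deleted, differences of -0.665 and -0.225 (limma adjusted p = 0.457 and 0.969). ALG13 and ALG14 encode the 2 parts of the enzyme that adds the next N-acetylglucosamine, ALG13 being catalytic and ALG14 its membrane anchor. ALG14 scored 7.52 and 6.89 in wild type, 6.74 and 5.95 with paf1 deleted and 6.00 with ctr9 deleted, with no overlap and differences of -0.86 and -1.21 (limma adjusted p = 0.513 and 0.624). ALG13 scored 5.34 and 4.82 in wild type, 5.12 and 5.70 with paf1 deleted and 4.34 with ctr9 deleted. Thus the wild type and paf1 deletion scores of ALG13 overlapped while those of its partner did not, and neither gene passed.

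ALG1, ALG2 and ALG11 encode the cytosolic mannosyltransferases, and none passed. ALG11 was the only member above both wild type arrays on all 3 deletion arrays, with 7.26 and 7.31 in wild type, 7.96 and 7.71 with paf1 deleted and 7.98 with ctr9 deleted (differences of 0.55 and 0.695, limma adjusted p = 0.603 and 0.75). ALG1 differed by 0.685 with paf1 deleted and 0.725 with ctr9 deleted, and ALG2 by -0.17 and 0.58. The lumenal mannosyltransferase genes ALG3, ALG9 and ALG12 differed by -0.185, 0.03 and 0.315 in the paf1 deletion and by -0.39, 0.11 and -0.055 in the ctr9 deletion. The additions of glucose by ALG6, ALG8 and DIE2 follow in the lumen. ALG5, which makes dolichyl phosphate glucose, scored 7.04 and 7.34 in wild type, 6.49 and 6.16 with paf1 deleted and 6.34 with ctr9 deleted (limma adjusted p = 0.466 and 0.747). ALG8 and ALG6, which add glucose, differed by -0.73 and -0.40 in the paf1 deletion and by -0.23 and -0.03 in the ctr9 deletion, and the paf1 deletion arrays overlapped with wild type for ALG6. DIE2, which adds the last glucose and was taken from a further list after its values were seen, differed by -0.07 and 0.78, and none of the 4 genes passed. For the whole group of 15 tested dolichol and oligosaccharide genes the median difference was -0.40 with paf1 deleted and -0.23 with ctr9 deleted, against -0.06 and 0.045 for all probe sets. Without wild type replicate 1 these medians were -0.28 and -0.17 (all probe sets 0.075 and 0.20), and without replicate 2 they were -0.585 and -0.68 (all probe sets -0.245 and -0.13).

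No oligosaccharyltransferase subunit passed. The median difference was -0.095 with paf1 deleted and 0.02 with ctr9 deleted, and 0 of 9 passed in limma, also at an unadjusted p under 0.05, where 14.8% and 9.64% of all probe sets were. Without wild type replicate 1 the medians were 0.055 and 0.37 (all probe sets 0.075 and 0.20). Without replicate 2 they were -0.38 and -0.23 (all probe sets -0.245 and -0.13). The sign thus depended on the wild type array, for the subunits as for all probe sets. STT3, the catalytic subunit, scored 8.52 and 8.48 in wild type, 8.63 and 8.44 with paf1 deleted and 8.92 with ctr9 deleted. OST3 and OST6 are alternative subunits of the complex. OST6 was the only subunit whose deletion arrays all lay below wild type, with 7.67 and 7.23 in wild type, 6.97 and 6.94 with paf1 deleted and 6.62 with ctr9 deleted (differences of -0.495 and -0.83, limma adjusted p = 0.712 and 0.73). OST3 differed by -0.08 and 0.21. The other subunits OST1, OST2, OST4, OST5, SWP1 and WBP1 differed by between -0.255 and 0.025 in the paf1 deletion, and their arrays overlapped with wild type. The 95% intervals of the subunits in the paf1 deletion were narrowest for OST4, from -0.604 to 0.654, and widest for OST2, from -1.32 to 1.13.

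The PMT genes encode O-mannosyltransferases that work in pairs, Pmt1 or its relative Pmt5 with Pmt2 or Pmt3, and Pmt4 with itself. Their median difference was -0.34 with paf1 deleted and -0.125 with ctr9 deleted, and 0 of 6 passed in limma, with 0 at an unadjusted p under 0.05, where 14.8% and 9.64% of all probe sets were. Without wild type replicate 1 these medians were -0.245 and 0.13 (all probe sets 0.075 and 0.20). Without replicate 2 they were -0.525 and -0.38 (all probe sets -0.245 and -0.13). PMT6, a less studied member of the Pmt2 subfamily, scored 8.55 and 8.28 in wild type, 8.03 and 7.74 with paf1 deleted and 7.79 with ctr9 deleted. PMT5 scored 6.46 and 6.20 in wild type, 5.64 and 5.60 with paf1 deleted and 5.99 with ctr9 deleted. For both genes the deletion arrays lay below wild type without overlap, but the differences in the paf1 deletion of -0.53 and -0.71 did not pass (limma adjusted p = 0.559 and 0.589). PMT1, PMT2, PMT3 and PMT4 overlapped with wild type and differed by -0.44, -0.005, -0.24 and 0.08. Of the glucosidase genes, CWH41, which removes the outermost glucose, differed by 0.265 with paf1 deleted and 0.055 with ctr9 deleted. ROT2, the catalytic subunit of the enzyme that removes the inner glucoses, scored 4.77 and 5.28 in wild type, 5.01 and 4.88 with paf1 deleted and 4.01 with ctr9 deleted (limma adjusted p = 0.982 and 0.718).

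**Figure D4:**
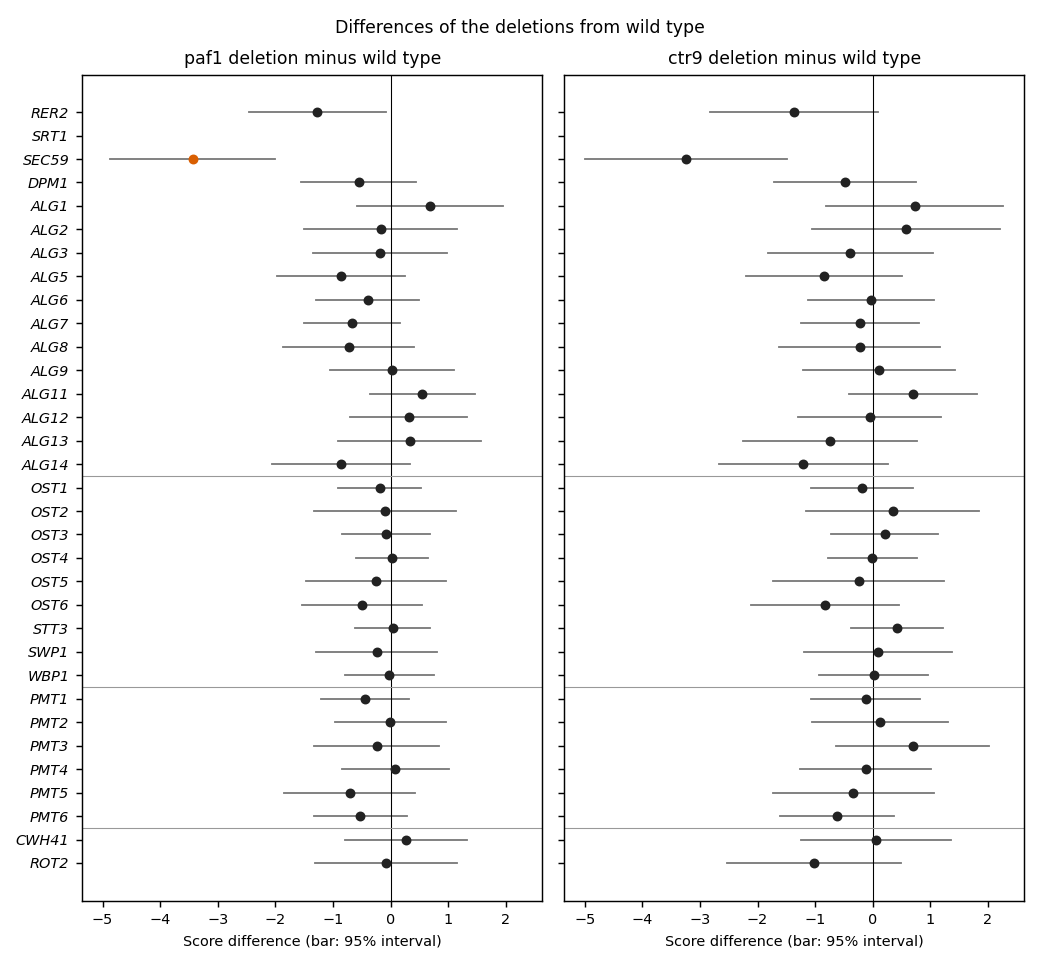
Score difference from wild type (x axis, points, with 95% intervals as bars) of the 32 tested members (y axis) in the paf1 deletion (left) and the ctr9 deletion (right), both against the same 2 wild type arrays. SEC59 in the paf1 deletion, at -3.44, is the only difference that passed (orange), and SRT1 was not tested.

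In the ctr9 deletion 0 of 32 members passed, against 0.0308% of all probe sets, and SEC59 was the only 1 at an unadjusted p under 0.05, where 9.64% of all probe sets were (limma). The ctr9 array lay below both wild type arrays for 11 members and above both for 6, where 30.7% and 34.2% of all probe sets did so. Leaving out a paf1 deletion replicate changes the estimated spread and not the SEC59 difference of -3.24 between the ctr9 deletion and wild type. Without wild type replicate 1 that difference was -2.84. All 3 deletion arrays lay below both wild type arrays for 9 members, SEC59, RER2, DPM1, ALG5, ALG7, ALG14, OST6, PMT5 and PMT6, where 17.2% of all probe sets did so. They lay above for 1, where 15.8% of all probe sets did so. Because both comparisons use the same wild type arrays, the values of the 2 deletions are given side by side only.

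The direct comparison of the deletions showed no member past the threshold, where 0.0616% of all probe sets passed (limma). Member differences, paf1 minus ctr9, lay between -0.935 for PMT3 and 1.07 for ALG13, and 0 of 32 had an unadjusted p under 0.05, where 2.93% of all probe sets did. SEC59 differed by -0.195 with a 95% interval from -1.95 to 1.56. The half-width of these unadjusted intervals was 0.77 to 1.76 score units, and passing after adjustment took larger differences still. CTR9 itself differed by 4.355 between the deletions and did not pass. The comparison therefore shows little about member differences of several score units or less.

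The time course asked whether the genes move while PAF1 is repressed. PAF1 itself had a slope of -0.04 in log2 signal per hour that did not pass (limma adjusted p = 0.858). Its signal was lowest at 2 h, at 0.437 of 0 h, and was 0.61 of 0 h at 8 h. A straight slope misses a course of that shape, so a slope short of the threshold does not show that a gene was unmoved. None of the 32 tested members had a slope past the threshold, and 0 of 6492 probe sets did, a share of 0% (limma), although 8.63% of all probe sets had an unadjusted p under 0.05. ALG13 was the only member at that p. The median slope of the members was 0.0022 in log2 signal per hour, against 0.01 for all probe sets, with 16 members positive and 16 negative. The ratio of highest to lowest signal over the 6 arrays had a median of 1.47 among the members and reached at most 1.95, for ALG9. It was at least 2 in 0 of 32 members and in 32.1% of all probe sets. The comparison is a description, because the ratio depends on signal level.

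ALG13 gave signals of 126.4, 173.0, 194.6, 192.4, 223.5 and 234.6 at 0, 2, 4, 5, 6 and 8 h. The lowest signal was at 0 h and the highest at 8 h, with a slope of 0.11 in log2 signal per hour (SE 0.03, limma adjusted p = 0.557), or 1.81-fold over 8 h with a 95% interval from 1.21 to 2.69. Its partner ALG14 stayed between 226.6 and 280.0, and the fitted change over 8 h was 0.97-fold with a 95% interval from 0.65 to 1.45. ALG1 and ALG12 had the next steepest positive slopes among the dolichol and oligosaccharide genes. ALG12 gave 488.0, 527.2, 673.9, 668.5, 636.8 and 688.2 at 0, 2, 4, 5, 6 and 8 h. ALG1 gave 148.2, 142.9, 172.4, 205.8, 244.1 and 183.1 at 0, 2, 4, 5, 6 and 8 h. Neither passed (limma adjusted p = 0.576 and 0.621).

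**Figure D5:**
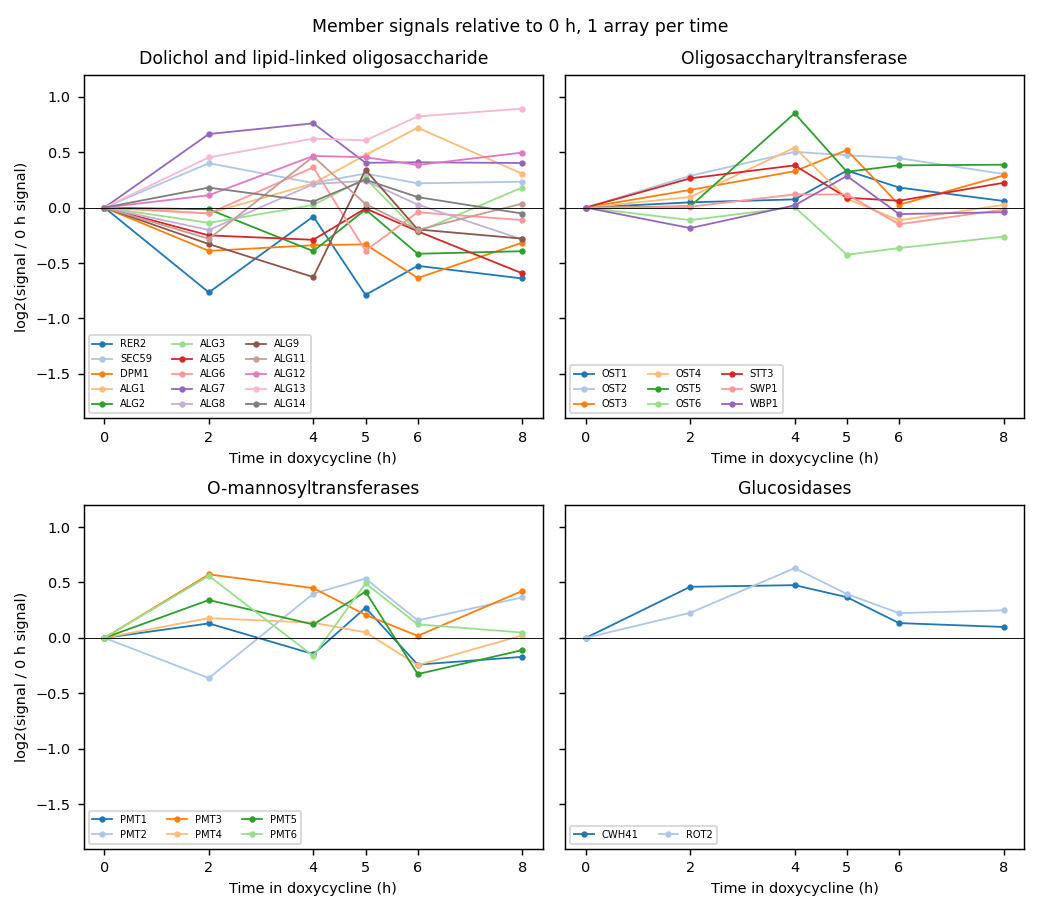
log2 ratio of each member's signal to its 0 h signal (y axis) against hours in doxycycline (x axis), 1 array per time, in 4 panels by group with a line per gene. ALG13 is highest at 8 h, at 1.86 times its 0 h signal, RER2 is lowest at 2 and 5 h, and OST5 has its highest value at 4 h.

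RER2 gave 593.3, 349.1, 561.1, 343.7, 412.2 and 380.9 at 0, 2, 4, 5, 6 and 8 h. Its signal was below 0 h at every later time but close to it at 4 h, and its slope of -0.06 did not pass (limma adjusted p = 0.723). DPM1 was likewise highest at 0 h, at 1913.9, and between 1232.4 and 1536.5 later. ALG5 went from 521.9 at 0 h to 346.1 at 8 h, with 519.2 at 5 h, and ALG2 from 295.8 to 225.2. ALG7 was lowest at 0 h, at 304.3, and between 402.1 and 515.3 later. None of these slopes passed.

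At 4 h all 9 oligosaccharyltransferase subunits were above their 0 h signal, with a median ratio of 1.26, where 54.8% of all probe sets were, with a median of 1.05. At 5 h 8 of 9 were, with a median of 1.22, where 48.9% of all probe sets were, with a median of 0.994. OST5 gave 1562.7, 1574.8, 2817.5, 1954.7, 2034.9 and 2043.1 at 0, 2, 4, 5, 6 and 8 h, and its 4 h value was the furthest from 0 h, at 1.80-fold. The actin 5' to 3' ratio and the spike-in controls stood apart on the same 4 h array, and their part in these values was not tested. At 6 and 8 h the subunit medians were 1.02 and 1.04. Among the PMT genes, all 6 were above 0 h at 5 h, with a median ratio of 1.27, and 3 of 6 at 6 h, with a median of 0.929, where 56.7% of all probe sets were above. PMT2 gave 3707.0, 2883.1, 4887.0, 5370.0, 4134.8 and 4775.4 at 0, 2, 4, 5, 6 and 8 h, with a slope of 0.07 that did not pass (limma adjusted p = 0.628). Both glucosidase genes were above 0 h at every later time, with CWH41 at most 1.39-fold and ROT2 at most 1.55-fold, each at 4 h. Single times had 1 array and no test.

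Few members moved by 1.5-fold at any time. At 4 h 4 of 32 were at least 1.5-fold higher, where 18.1% of all probe sets were, and 1 was at least 1.5-fold lower, where 14.0% were. At 8 h 1 was higher, ALG13, where 17.3% of all probe sets were, and 2 were lower, RER2 and ALG5, where 9.84% were. At 2, 5 and 6 h 1 to 2 members were higher and 1 lower, where 10.8% to 18.5% of all probe sets were higher and 10.6% to 13.1% lower.

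The paf1 deletion and the time course share no array. Across the 32 members the deletion difference and the slope had a Spearman correlation of 0.509, against 0.337 across 6107 probe sets that passed both filters. Genes share arrays and are not independent, so no test belongs to these values. Of the members 12 were lower in both, 5 higher in both and 15 opposite, which is 37.5%, 15.6% and 46.9%, against 29.5%, 30.8% and 39.2% of all probe sets. RER2, DPM1 and ALG5 were among those lower in both, ALG1, ALG11, ALG12 and ALG13 among those higher in both, and SEC59 among those that went opposite ways.

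Other genes of the pathway were taken from 4 further lists. In the paf1 deletion 0 of 16 tested genes for sugar donors and dolichol partners passed, where 1.71% of all probe sets did (limma). Of the 16, 12 were lower with a median of -0.22, against 54.0% and -0.06 for all probe sets. Without wild type replicate 1, 6 were lower with a median of 0.078, against 45.7% and 0.075 for all probe sets. With the smallest p in that list, DFG10, which encodes a polyprenol reductase of dolichol synthesis, scored 6.28 and 6.02 in wild type, 4.57 and 2.48 with paf1 deleted and 3.57 with ctr9 deleted (limma adjusted p = 0.109 and 0.373). CAX4, which encodes the phosphatase that recycles dolichyl pyrophosphate, scored 3.64 and 4.74 in wild type, 2.47 and 2.17 with paf1 deleted and 1.46 with ctr9 deleted (limma adjusted p = 0.285 and 0.373). Like SEC59, CAX4 was tested only through its wild type scores, as its deletion scores lay under the filter value of 2.84. NUS1, whose product works with Rer2 and which was looked at after its values were seen, scored 2.72 and 3.61 in wild type, 4.60 and 3.85 with paf1 deleted and 3.34 with ctr9 deleted, a difference of 1.06 in the paf1 deletion (limma adjusted p = 0.528). HXK1, a hexokinase gene repressed by glucose, was higher, at 5.88 and 6.24 in wild type and 7.56 and 8.06 in the paf1 deletion (limma adjusted p = 0.113). BTS1, which encodes geranylgeranyl diphosphate synthase, differed by -1.95 in the ctr9 deletion (limma adjusted p = 0.373).

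GPI anchor synthesis also uses dolichyl phosphate mannose. Of its 18 tested genes 16 were lower in the paf1 deletion, with a median of -0.468. Over all probe sets 54.0% were lower, with a median of -0.06. Without wild type replicate 1, 13 were lower with a median of -0.36, against 45.7% and 0.075 for all probe sets. In the full fit 0 of the 18 passed, where 1.71% of all probe sets did (limma). An unadjusted p under 0.05 was seen for 5, all lower (limma), where 7.79% of all probe sets were lower at that p. GPI12 scored 7.37 and 8.00 in wild type, 6.08 and 5.77 with paf1 deleted and 6.49 with ctr9 deleted, and GPI15 scored 7.11 and 6.56, 4.93 and 5.40, and 4.66 (limma adjusted p in the paf1 deletion = 0.124 and 0.173). They encode an N-acetylglucosaminylphosphatidylinositol deacetylase and a subunit of the transferase before it. GPI18, a mannosyltransferase gene, differed by -1.34 (limma adjusted p = 0.298). In the ctr9 deletion 12 of the 18 were lower, with a median of -0.548, against 46.3% and 0.045 for all probe sets. GPI10 differed there by 1.89 (limma adjusted p = 0.414).

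Of 20 endoplasmic reticulum folding and quality control genes 11 were higher and 8 lower in the paf1 deletion, with a median of 0.053 and 0 passed (limma). Over all probe sets 45.6% were higher and 54.0% lower, with a median of -0.06, and 1.71% passed (limma). KAR2, the main lumenal chaperone gene and a target of the unfolded protein response, scored 8.74 and 8.10 in wild type, 8.41 and 8.30 with paf1 deleted and 8.08 with ctr9 deleted. SCJ1, a cochaperone gene, differed by 0.93 in the paf1 deletion (limma adjusted p = 0.379), and IRE1, the sensor of that response, by 1.98 in the ctr9 deletion (limma adjusted p = 0.442). Of 20 Golgi mannosyltransferase genes 11 were higher and 9 lower in the paf1 deletion, with a median of 0.025 and 0 passed (limma). Without wild type replicate 2, 14 were lower with a median of -0.315, against 61.2% and -0.245 for all probe sets. KTR4 differed by 0.875 (limma adjusted p = 0.178) and MNN2 by -1.23 (limma adjusted p = 0.324). In the time course 15 sugar donor, 20 folding, 20 Golgi and 18 GPI anchor genes were tested (limma). Of these 0 passed, and 0% of all probe sets did. HXK2 was the only 1 at an unadjusted p under 0.05 (limma), where 8.63% of all probe sets were. HXK1 missed that p, although its later signals were all above the first, by 1.85-fold to 5.52-fold. Its slope was 0.22 in log2 signal per hour (limma adjusted p = 0.61).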

How the data were processed

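The deposited table held 9335 probe sets on 11 arrays, 60 of them controls. The authors' values were used as deposited. The time course intensity values, linear as deposited, had been scaled by the authors, judging from a 2% trimmed mean near 500 on each array. The strain values, as deposited, are a score without a stated scale. How either was computed (software, background correction) is not given in the sources used here. Gene names came from GEO's platform annotation and neighbours from RefSeq assembly R64.

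Scores were used without a logarithm. Low signals were raised to the 10th percentile, 5.5, and log2 was taken. Probe sets with a mean under the 30th percentile (score 2.84, signal 37.4) were left out. The pathway lists lost genes not annotated on the array. limma 3.58.1 (R 4.3.3; lmFit, eBayes with trend) compared group means over the 5 strain arrays (2 residual degrees of freedom, the lone ctr9 array being assumed to vary like the other groups) and fitted a slope per hour over the time course (4 residual degrees of freedom). All p-values are two-sided, adjusted by Benjamini-Hochberg across the probe sets tested, and the fits were checked on simulated data.

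Members and lists were chosen with earlier results of these data known. All members could be named, others if past the threshold or among the 3 smallest p of a list and comparison, along with PAF1, CTR9 and neighbours of members that passed. Promoter motifs were planned and not analysed here.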

Additional observations from a re-analysis of the deposited data

How the results depend on the processing

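Over all probe sets, 111 passed in the paf1 deletion, against 41 without a filter, 56 with a filter at the 50th percentile, 42 with quantile normalization and 39 without a variance trend, and 0 to 190 when 1 replicate was left out. The number of members past the threshold there, 1, became 0 without a filter, with the filter at the 50th percentile (where SEC59 was not tested) and with quantile normalization, and was 0 to 1 when 1 replicate was left out. Wild type and paf1 deletion replicates share numbers in the labels, but deviations from the group means did not go together (correlation 0.00804 across probe sets). A replicate block gave 198 probe sets past the threshold, with SEC59 still past it (limma adjusted p = 0.0158). In the ctr9 deletion 2 probe sets passed, and 0 did without a filter, with the filter at the 50th percentile, with quantile normalization and without a variance trend. When 1 replicate was left out, 0 to 108 passed, and 0 to 1 member did. Between the deletions 4 passed, and 2 did with the filter at the 50th percentile, with quantile normalization and without a variance trend, or 0 to 11 when 1 replicate was left out. The SEC59 difference between the deletions ran from -0.47 to 0.08 in those fits, positive without paf1 deletion replicate 1. In the time course 0 members passed under any alternative run, including a fit without the 4 h and 6 h arrays chosen after seeing the data. The lowest adjusted p of a member was then 0.664, and over all alternatives 0.338, without the 4 h array (limma). The medians and counts of the further pathway lists without a wild type array were added after seeing the data. Causes were not tested.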

Other observations

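ALG3 was the only member with several probe sets of its own. In the paf1 deletion they differed from wild type by 1.04, 0.245 and -0.185, and none passed (limma adjusted p = 0.557, 0.894 and 0.947), so the sign of the ALG3 difference depended on the probe set. The first of them gave signals from 35.5 at 0 h to 102.2 at 6 h, and the one used for the gene gave 836.3 to 1169.3.

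WBP1, an oligosaccharyltransferase subunit gene, also has a control probe set on this array. That probe set scored 8.71 and 8.53 in wild type, 8.34 and 8.27 with paf1 deleted and 8.49 with ctr9 deleted, so all 3 deletion arrays lay below wild type. The gene's own probe set scored 8.58 and 8.08, 8.14 and 8.47, and 8.35, with overlap. Both probe sets had their highest time course signal at 5 h, at 1.10 and 1.22 times their 0 h signal.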
